A study of Homo sapiens with 4 samples.

Results

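VPS35L and 9 other genes of the retriever, retromer and CCC assemblies were followed through the spliced RNA on the chromatin of K562 cells, an established line usually described as erythroleukemic, with mutant or wild-type SF3B1. VPS35L, called C16orf62 in older annotation, was the reason for choosing the group, because its spliced reads were higher in the mutant cells. The other members were VPS26C (formerly DSCR3), VPS29, VPS35, CCDC22, CCDC93, COMMD1, COMMD2, COMMD3 and COMMD10. They make up 10 of the 10856 genes with enough spliced reads for a test, and all 10 were among those.

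The study set 2 libraries of genotype SF3B1 K700E against 2 libraries of wild-type genotype. Both genotypes share a treatment text in which doxycycline at 1 µg/ml induced the modified allele and cells were harvested at 4 days. It is not stated if an inducible allele or the drug was also present in wild-type cells, if the mutant line was 1 clone, or if replicates were separate cultures, so p-values measure only the spread between these libraries, which may be technical. In both groups the buffers held 25 µM α-amanitin, an inhibitor of RNA polymerase II, and chromatin RNA was stripped of polyadenylated and ribosomal RNA before sequencing.

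Retriever is an endosomal trimer of VPS35L, VPS26C and VPS29 that sends membrane proteins such as integrins and LRP1 back to the cell surface with the cargo adaptor SNX17. Its relative, retromer, shares VPS29 and is built on VPS35 with VPS26A or VPS26B. The CCC complex, made of COMMD proteins with the coiled-coil proteins CCDC22 and CCDC93, binds retriever on endosomes, where the WASH complex builds branched actin. SF3B1 is the spliceosome subunit that recognises the branch point, and its K700E form is known for using cryptic 3′ splice sites upstream of the usual ones.

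A deposited count is the number of uniquely mapped reads across 1 splice junction, and a gene total is the sum over the annotated introns that belong to that gene alone. Totals were scaled to a common library size and given as CPM, with edgeR's TMM factors. The K700E libraries held 4304213 and 5322414 unique junction reads and the wild-type libraries 3582592 and 3687513. SF3B1 itself had 844 and 701 CPM in K700E cells against 896 and 1015 CPM in wild-type cells (log2 change −0.31, SE 0.22, adjusted p = 0.745 by edgeR's quasi-likelihood test). Junction totals do not read the codon and therefore do not check the genotype. The labels call the cells epithelial. All 10 erythroid markers had reads, 8 of them at 1 CPM or more. Of the 6 epithelial markers CDH1 and KRT5 had none, and the other 4 were at 1 CPM or more. KRT18 had 159 and 176 CPM in K700E cells against 209 and 179 CPM in wild-type cells. That was above every listed erythroid marker except TFRC, so these markers do not settle the label. The summed epithelial markers were 348 and 443 CPM in K700E cells and 473 and 372 CPM in wild-type cells.

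The finding the group was chosen for is read from spliced joins that can arise only when an intron of VPS35L has been removed. The joins below had the most reads in the gene and show 15 bases on either side of introns 6, 5 and 4 of transcript VPS35L-203, with lower case for the upstream exon and capitals for the downstream exon. They lie on the plus strand of chromosome 16 of GRCh38, over introns chr16:19579129-19581524, chr16:19575123-19579051 and chr16:19573242-19575097, and come from the GENCODE release 29 transcript.
VPS35L intron 6: gatgactttgaggagGGTTCCCAAAAGGAG
VPS35L intron 5: tgggatctgaaaaagGCAAAGCTGGGACTG
VPS35L intron 4: gaaaagctgtctattAATCTGTTTATGGGA
The intron 6 join was read 32 and 57 times in K700E libraries against 1 and 0 times in wild-type libraries. The intron 5 join was read 23 and 61 times in K700E libraries against 4 and 1 times in wild-type libraries. The intron 4 join was read 30 and 48 times in K700E libraries against 4 and 2 times in wild-type libraries. At each of the 3 joins both K700E libraries lay above both wild-type libraries, as at 18.9% of all annotated introns with at least 10 reads. The joins belong to the total that chose the group and were picked for their reads, most of them from K700E libraries. Their counts are a description and carry no test.

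VPS35L, the scaffold subunit of retriever, had 484 and 582 reads in K700E cells against 42 and 19 reads in wild-type cells. On the CPM scale its total was 122 and 121 in K700E cells and 12.8 and 5.71 in wild-type cells, a ratio of means of 13.1 and a fitted log2 change of 3.71. The mutant libraries stood close together and the wild-type libraries differed from each other by more than a doubling of the lower value. Among the 5428 tested genes above the median abundance, the log2 change of VPS35L ranked 3 from the top. These values selected the group, so they are a description and carry no test. In bulk RNA, more cells with the transcript and more transcript per cell cannot be told apart. The summed lymphoid markers, nearly all from PTPRC with MS4A1 at 0 and 3 of 4 genes having reads, also did not overlap, at 1766 and 1530 CPM in K700E cells against 883 and 1206 CPM in wild-type cells. The 4 fibroblast markers summed to 26.2 and 17.04 CPM in K700E cells against 32.9 and 40.1 CPM in wild-type cells, mostly COL1A1, while COL1A2 went the other way at 5.55 and 3.53 CPM in K700E cells against 0.299 and 0 CPM in wild-type cells. The summed erythroid markers overlapped between groups at 1276 and 1918 CPM in K700E cells against 1444 and 1872 CPM in wild-type cells. These sums were mostly TFRC, at 1115 and 1658 CPM in K700E cells against 1189 and 1643 CPM in wild-type cells. They therefore say little about the other erythroid markers. Of these only HBZ did not overlap, at 2.27 and 4.16 CPM in K700E cells against 1.497 and 0.904 CPM in wild-type cells. The part of the lymphoid, fibroblast and erythroid markers in the VPS35L values was not tested.

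**Figure D1:**
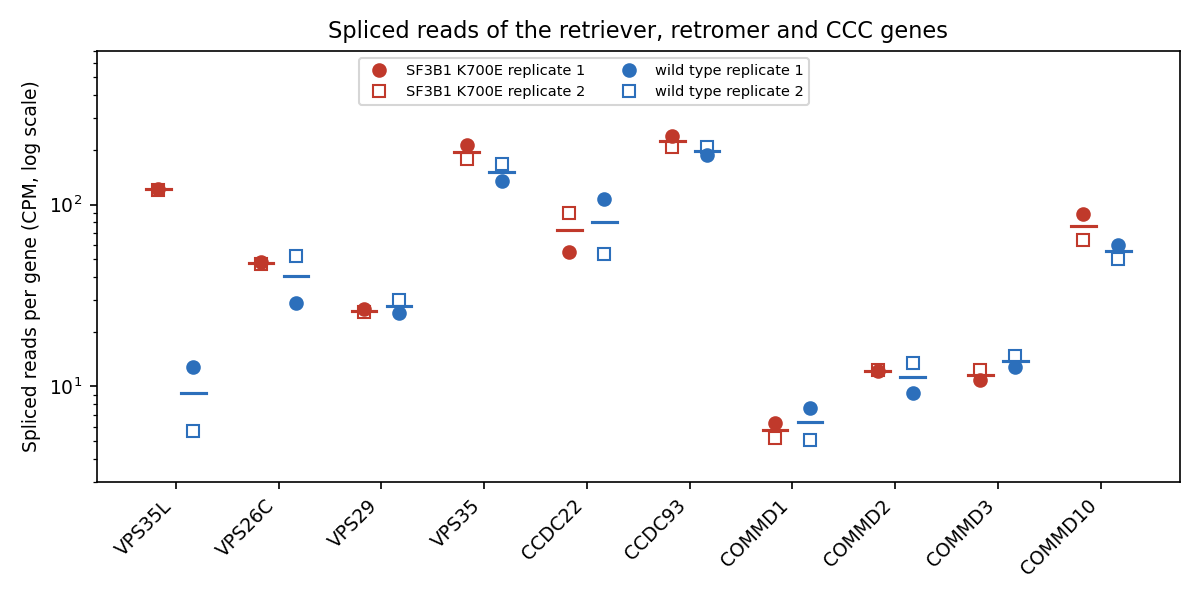
Spliced reads per gene in CPM (log axis) for the 10 genes, with SF3B1 K700E left of wild type, 1 point per library and a bar at each group mean. VPS35L lies at 122 and 121 CPM in K700E libraries and at 12.8 and 5.71 CPM in wild-type libraries, whereas the groups of the other 9 genes lie close to each other.

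The higher VPS35L signal ran along the whole gene. Its main transcript has 30 introns, and at all 30 both K700E libraries exceeded both wild-type libraries. Over all annotated introns with at least 10 reads, 18.9% showed that pattern. The VPS35L introns make up the total that chose the group and are not independent. Their count is a description and carries no test. A single K700E library had 4 to 61 reads over an intron, against 0 to 5 reads in a single wild-type library. At 8 of the 30 introns neither wild-type library had a read. Intron 1, which joins the first annotated exon of the transcript to the rest, had 6 and 7 reads in K700E cells and none in wild-type cells. Intron 30, at the far end, had 6 and 9 reads in K700E cells against 0 and 1 in wild-type cells.

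Grouped by 10 introns, introns 1 to 10 of VPS35L had 49.4 and 62.3 CPM in K700E cells against 6.72 and 3.90 CPM in wild-type cells, 10.5 times as much by group means. Introns 11 to 20 had 42.3 and 32.2 CPM in K700E cells against 3.05 and 0.601 CPM in wild-type cells, 20.4 times as much. Introns 21 to 30 had 28.97 and 25.1 CPM in K700E cells against 3.05 and 1.20 CPM in wild-type cells, 12.7 times as much. The first 10 introns held the most reads in both genotypes. Introns 1 to 10 held 47.0% of 1055 K700E reads (95% Wilson interval 44.0 to 50.03%) and 57.4% of 61 wild-type reads (44.9 to 69.0%). Introns 11 to 20 held 30.6% of the K700E reads (27.9 to 33.5%) and 19.7% of the wild-type reads (11.6 to 31.3%). Introns 21 to 30 held 22.4% of the K700E reads (19.96 to 24.98%) and 22.95% of the wild-type reads (14.2 to 34.9%). These intervals pool the reads of both libraries of a genotype and cover counting error only. By library, introns 1 to 10 held 40.9% and 52.1% of K700E reads and 52.4% and 68.4% of wild-type reads. Both K700E libraries thus lay outside the pooled interval. With 61 wild-type reads a different shape along the gene was not detectable at this depth.

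**Figure D2:**
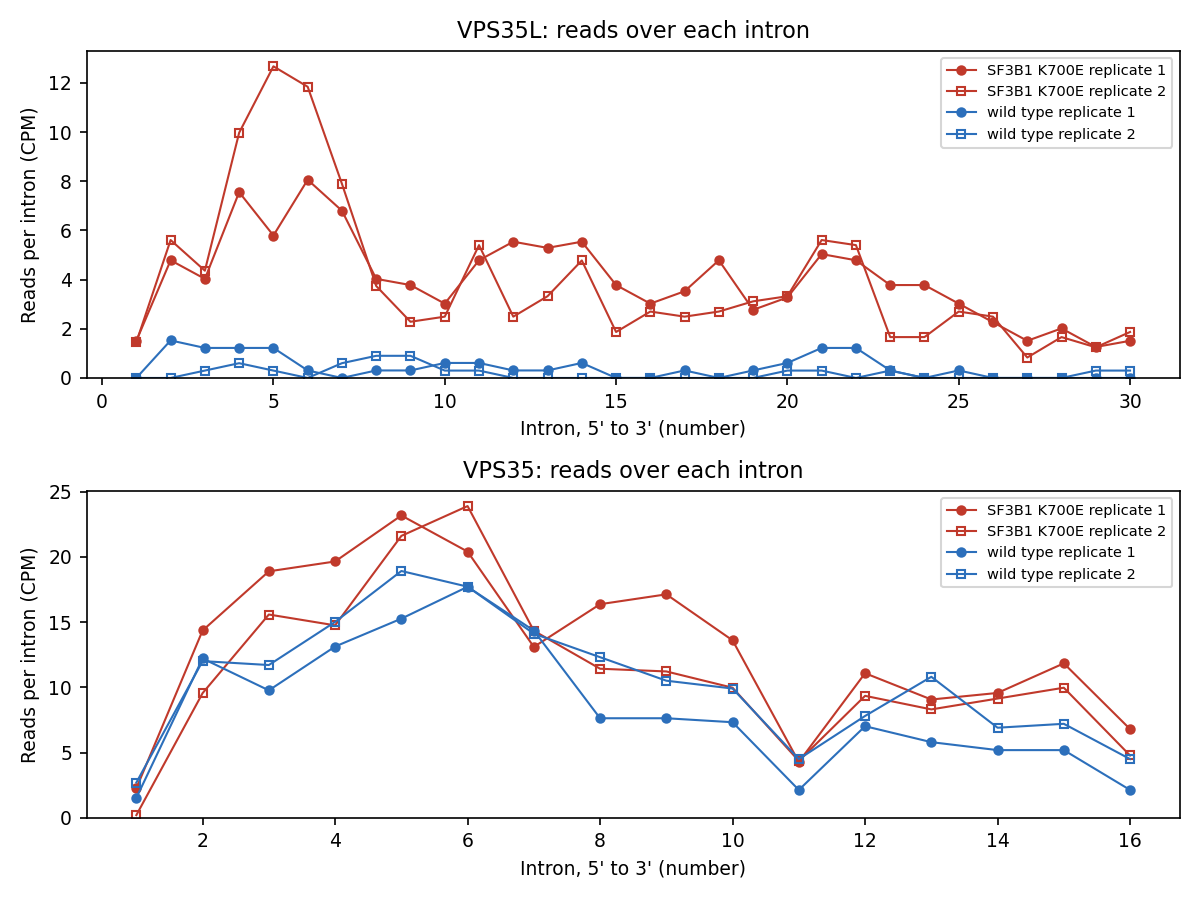
Reads per intron in CPM along the main transcripts of VPS35L (30 introns, upper panel) and VPS35 (16 introns, lower panel), numbered 5′ to 3′, with 1 line per library. At every VPS35L intron both K700E lines lie above both wild-type lines, while at 7 of the 16 VPS35 introns the groups overlap.

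Per intron of the main transcript, which allows levels to be set side by side between genes, VPS35L had 4.02 and 3.99 CPM in K700E cells against 0.427 and 0.190 CPM in wild-type cells. Its level was 0.642 and 0.611 of the VPS26C level in K700E cells, against 0.108 and 0.0255 of it in wild-type cells. Relative to VPS35, its paralog in retromer, the level was 0.304 and 0.358 in K700E cells against 0.0510 and 0.0183 in wild-type cells. In K700E cells VPS35L averaged 4.01 CPM per intron and lay between CCDC22 at 4.54 and COMMD1 at 2.87. In wild-type cells it averaged 0.309 CPM per intron and was the lowest of the 10, below COMMD2 at 2.65.

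None of the other 9 genes passed the test. Over all genes, 0.332% were called higher and 0.599% lower in K700E cells, 0.93% in either direction, at an adjusted p of 0.05 by edgeR. Of the 9, none was called by edgeR or DESeq2 and none had an unadjusted p under 0.05, a level that 10.1% of all genes reached. Their log2 changes ran between −0.25 and 0.46 with adjusted p between 0.655 and 0.982 by edgeR, 5 positive and 4 negative. Their median was 0.10, beside 0.00 for all tested genes. Both K700E libraries exceeded both wild-type libraries for 3 of the 9 (19.3% of all genes did) and lay below them for 1 (20.1% of all genes did).

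VPS26C, the arrestin-fold subunit that completes retriever with VPS35L and VPS29, had 48.1 and 47.2 CPM in K700E cells against 28.7 and 52.2 CPM in wild-type cells. The wild-type libraries enclosed the mutant ones, and the log2 change was 0.23 (SE 0.32, adjusted p = 0.910 by edgeR). VPS29, the small subunit common to retriever and retromer, had 26.7 and 25.6 CPM in K700E cells against 25.3 and 29.7 CPM in wild-type cells, with overlapping groups and a log2 change of −0.08 (SE 0.28, adjusted p = 0.982 by edgeR). Over introns 1 to 3 VPS26C had 18.4 and 19.1 CPM in K700E cells against 6.72 and 17.7 CPM in wild-type cells, and over introns 6 and 7 it had 10.8 and 10.2 CPM in K700E cells against 9.77 and 17.4 CPM in wild-type cells. Its low wild-type value over introns 1 to 3 came from replicate 1. The partners of VPS35L in the trimer thus showed no change beyond the spread between libraries.

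VPS35, the retromer scaffold, had 212 and 179 CPM in K700E cells against 134 and 167 CPM in wild-type cells. The groups did not overlap, but the log2 change of 0.38 (SE 0.23) did not pass (adjusted p = 0.689 by edgeR). Both K700E libraries exceeded both wild-type libraries at 9 of its 16 introns and at no intron lay below them, beside 18.9% above and 17.1% below over all annotated introns with at least 10 reads. Introns of the same gene share its libraries and are not independent, here and in the genes below. Such counts are a description and carry no test. The K700E mean of VPS35 was 1.25 times the wild-type mean over introns 1 to 6, 1.28 times over introns 7 to 11 and 1.44 times over introns 12 to 16.

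CCDC22, a coiled-coil organiser of the CCC complex, had the widest SD of the 10 in CPM in either group, with 55.2 and 90.2 CPM in K700E cells against 107 and 53.4 CPM in wild-type cells. Its log2 change was −0.14 (SE 0.36, adjusted p = 0.965 by edgeR), and 14 of its 16 introns overlapped between groups. CCDC93, the partner coiled coil, had 238 and 206 CPM in K700E cells against 187 and 206 CPM in wild-type cells. K700E replicate 2 and wild-type replicate 2 were nearly equal, and the log2 change was 0.18 (SE 0.22, adjusted p = 0.894 by edgeR). Of its 23 introns, both K700E libraries exceeded both wild-type libraries at 5 and lay below them at 1, beside the same 18.9% and 17.1% over all introns.

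COMMD1, the founding COMMD protein and a regulator of copper transport, is spread over a pair of introns of 94842 and 134848 nt and had 6.30 and 5.19 CPM in K700E cells against 7.63 and 5.10 CPM in wild-type cells. With 17 to 25 reads per library, its log2 change of −0.15 had the widest error of the members (SE 0.46, adjusted p = 0.976 by edgeR). COMMD2, another ring-forming COMMD protein, had 12.1 and 12.3 CPM in K700E cells against 9.16 and 13.5 CPM in wild-type cells (log2 change 0.10, SE 0.37, adjusted p = 0.982 by edgeR). Both genes overlapped between the groups.

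COMMD3 was counted only over introns that it does not share with the COMMD3-BMI1 readthrough gene, where it had 10.8 and 12.3 CPM in K700E cells against 12.8 and 14.7 CPM in wild-type cells. It was the member with both K700E libraries below both wild-type libraries, with a log2 change of −0.25 (SE 0.34, adjusted p = 0.911 by edgeR). With the shared introns kept, its log2 change was −0.14. COMMD10 had 88.4 and 64.2 CPM in K700E cells against 60.1 and 50.4 CPM in wild-type cells. Its groups did not overlap, and its log2 change of 0.46 (SE 0.27) was the highest of the 9 without passing (adjusted p = 0.655 by edgeR). Both K700E libraries exceeded both wild-type libraries at 3 of its 6 introns, beside 18.9% over all introns. These introns are not independent either, and 1 of the 6 is 157338 nt long.

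Among the genes around VPS35L none passed the test. Of 26 protein-coding genes within 1 Mb of it, 14 had enough reads. None of the 14 was called by edgeR or DESeq2, beside 0.93% of all genes by edgeR. None had an unadjusted p under 0.05 by edgeR, beside 10.1% of all genes. Both K700E libraries exceeded both wild-type libraries for 3 of the 14 (19.3% of all genes did) and lay below them for 1 (20.1% did). With 14 genes these counts do not show that the region was unchanged. The median log2 change of the 14 was −0.02. CCP110, a centriole protein gene on the same strand that ends 1831 bases before VPS35L, had 29.98 and 24.1 CPM in K700E cells against 24.7 and 29.7 CPM in wild-type cells (log2 change −0.01, SE 0.29). KNOP1, on the opposite strand, overlaps the end of VPS35L by 4860 bases and had 14.1 and 18.3 CPM in K700E cells against 20.5 and 6.91 CPM in wild-type cells (log2 change 0.25, SE 0.46). In both genes the groups overlapped. The neighbours with the widest log2 changes were GPRC5B at −1.07 (SE 0.66) and ACSM3 at −0.59 (SE 0.27), with adjusted p of 0.689 and 0.516 by edgeR.

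**Figure D3:**
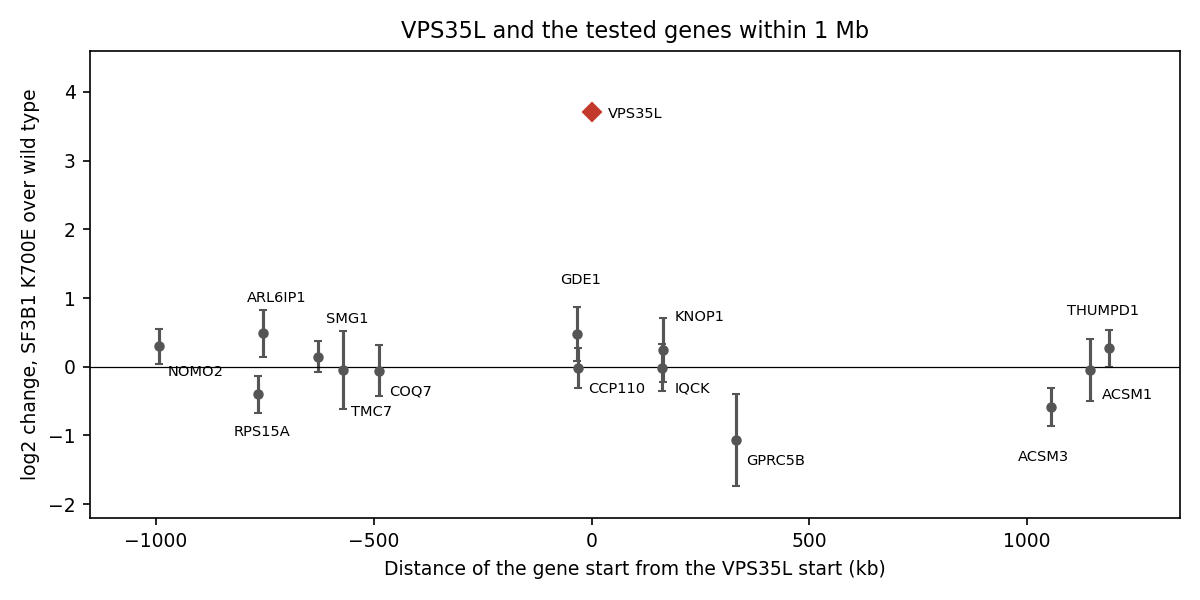
Log2 change of spliced reads, SF3B1 K700E over wild type, for VPS35L (diamond) and the 14 tested genes within 1 Mb, against the distance of each gene's start from the VPS35L start in kb, with bars of 1 SE for the neighbours. The neighbours lie between −1.07 and 0.49, and VPS35L at 3.71.

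The tested genes whose pattern over the 4 libraries was most like that of VPS35L were ELMO1, UTRN, ARHGAP26 and the transcribed pseudogenes ANKRD20A8P and AC097374.1. Likeness was the Euclidean distance between log2 CPM values centred on each gene's mean, over the 4 libraries and among genes above the median abundance, and it was 1.01 for ELMO1 and 1.73 to 1.89 for the others. ELMO1, an adaptor for Rac activation in engulfment and migration, had 103 and 80.2 CPM in K700E cells against 13.7 and 10.5 CPM in wild-type cells. Like VPS35L these were picked for this pattern, so their values carry no test.

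In the wider pathway none of the genes reported here passed either. Of 50 listed genes in 5 lists, 48 were tested, and edgeR called none, whereas DESeq2 called 1. An unadjusted p under 0.05 was reached by 2 of the 48, both lower in K700E cells, beside 10.1% of all genes in either direction. Both K700E libraries exceeded both wild-type libraries for 10 of the 48 (19.3% of all genes did) and lay below them for 7 (20.1% of all genes did). COMMD7 and the sorting nexin SNX31 had too few reads.

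Among the 6 other tested COMMD and CCC genes the median log2 change was 0.05, and the widest changes were COMMD9 at 0.52 (SE 0.42) and COMMD4 at 0.47 (SE 0.35). The 9 WASH complex genes had a median of −0.11, between WASHC3 at −0.33 (SE 0.29) and WASHC4 at 0.36 (SE 0.31), both subunits of the core complex. The 13 retromer and sorting nexin genes had a median of 0.14, with VPS26A, the arrestin-fold subunit of retromer, at −0.66 (SE 0.30) and SNX1, a membrane-bending nexin, at 0.36 (SE 0.23). VPS26A had 43.8 and 26.0 CPM in K700E cells against 55.0 and 55.0 CPM in wild-type cells. The 9 phosphoinositide and early endosome genes had a median of 0.08, with RAB5B, an early endosome GTPase, at 0.50 (SE 0.27) and PIK3R4, the regulatory subunit of the class III PI3-kinase, at 0.49 (SE 0.25).

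The 11 cargo and signalling partners had a median of −0.06, and the 2 genes with an unadjusted p under 0.05 were among them. ATP7B, a copper transporter that COMMD1 is known to bind, had 85.1 and 107 CPM in K700E cells against 179 and 185 CPM in wild-type cells. Its log2 change was −0.92 (SE 0.23, adjusted p = 0.112 by edgeR and 0.0408 by DESeq2). LRP1, a retriever and SNX17 cargo, had 147 and 152 CPM in K700E cells against 248 and 223 CPM in wild-type cells (log2 change −0.65, SE 0.22, adjusted p = 0.268 by edgeR). In both genes the K700E libraries lay below the wild-type libraries without overlap.

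**Figure D4:**
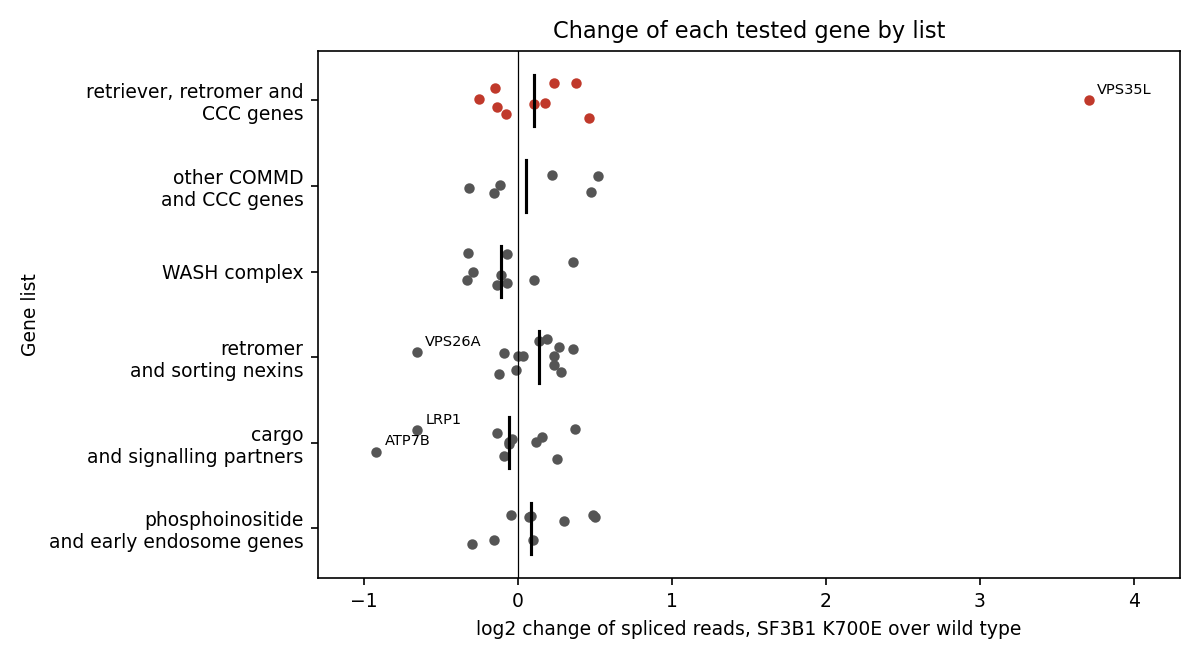
Log2 change of spliced reads, SF3B1 K700E over wild type, for each tested gene of the 10 chosen genes (top row) and of the 5 pathway lists below, with points spread vertically for legibility and a vertical bar at each row's median (VPS35L left out of the top row's median). Genes beyond 0.6 in either direction are named, and VPS35L lies at 3.71, while the genes of the 5 lists lie between −0.92 and 0.52.

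Splicing within the genes was compared as the share that a junction takes of the reads at its donor or acceptor site. Over all genes 24 of 46342 such tests were called higher in K700E cells (0.0518%) and 2 lower (0.00432%) by edgeR's diffSpliceDGE. The members gave 32 tests over 27 junctions, of which none was called and 1 had an unadjusted p under 0.05, beside 2.68% of all tests. Both K700E shares exceeded both wild-type shares in 6 of the 32 tests (18.8% of all tests did) and lay below them in 6 (18.5% of all tests did). VPS35L, VPS35, COMMD1 and COMMD2 had no site with competing junctions of at least 10 reads.

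The test with an unadjusted p under 0.05 was the skipping of an 81-nt coding exon of VPS26C, in which an exon whose length is a multiple of 3 is left out. The exon lies at chr21:37233362-37233442 on the minus strand of GRCh38. The joins below show 15 bases on either side as the transcript reads, with capitals for the exon downstream of the join, and the last line is the skipped exon in full, all in capitals; all are from GENCODE release 29.
VPS26C into the exon: tttgtcaacattcagTATACACTGCGCTGT
VPS26C out of the exon: atcgttcactccgctCCTCAGAAGGGGAAG
VPS26C skipping the exon: tttgtcaacattcagCCTCAGAAGGGGAAG
VPS26C exon: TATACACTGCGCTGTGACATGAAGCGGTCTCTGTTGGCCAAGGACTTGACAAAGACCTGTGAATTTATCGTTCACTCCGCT
The skipping join had 8 and 4 reads in K700E cells against 1 and 0 reads in wild-type cells. Counted against the mean of the joins on either side of the exon, skipping took 25.4% and 16% in K700E cells against 8.70% and 0% in wild-type cells. The groups did not overlap, at 20.7% ± 6.64 in K700E cells and 4.35% ± 6.15 in wild-type cells (SD, n = 2 each, exact two-sided permutation p = 0.333, which no assignment of 4 libraries can go below). By diffSpliceDGE the unadjusted p of the skipping join was 0.038 among the joins to the shared downstream exon and 0.092 among those from the shared upstream exon, and the adjusted p was 1.00 in both. All of it rests on 12 skipping reads in K700E cells and 1 in wild-type cells, and 0 reads in wild-type replicate 2 still allow a share of up to 14.3% (3 reads).

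In all, 12 splicing choices could be followed in the members, and in 4 both K700E shares exceeded both wild-type shares while in none did they lie below. Over all junction tests 18.8% lay above and 18.5% below, and the members' own 32 tests split evenly, 6 and 6. Each choice scores a single form, namely skipping, inclusion of an unannotated exon or the less used site. The junction tests score every competing junction, so the percentages are not a like background for the choices. VPS29 skipped an annotated 40-nt exon in 40.0% and 42.9% of reads in K700E cells against 0% and 28.6% in wild-type cells, from 9 skipping reads in K700E cells and 1 in wild-type cells, where 0 reads in replicate 1 allow up to 46.2%. CCDC93 included an unannotated 84-nt exon at chr2:118004701-118004784 in 10.9% and 8.84% of reads in K700E cells against 2.13% and 3.77% in wild-type cells. That exon was seen in 28 reads from K700E cells and 6 from wild-type cells, its means were 9.90% ± 1.49 in K700E cells and 2.95% ± 1.16 in wild-type cells (SD, n = 2 each, exact permutation p = 0.333), and its junctions were not called by diffSpliceDGE.

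COMMD3 used the less used of its acceptors, shifted by 81 nt, in 16 and 9 reads in K700E cells against 15 and 12 reads in wild-type cells. The other acceptor had 29 and 26 reads in K700E cells and 15 and 24 in wild-type cells, with overlapping shares. The intron of that other acceptor is annotated in more than 1 gene, so its reads may also come from the COMMD3-BMI1 readthrough. CCDC22 used an unannotated acceptor 4 nt from the annotated one in 36.8% and 7.69% of reads in K700E cells against 23.3% and 10.0% in wild-type cells, again overlapping. COMMD10 gave 5 of the 12 choices, and in 1 of them the groups did not overlap. This was an unannotated direct join past unannotated exons, scored at its acceptor. It took 40.0% and 37.5% of reads there in K700E cells against 15.4% and 33.3% in wild-type cells. Its reads were 6 and 6 in K700E cells against 2 and 2 in wild-type cells. The same join scored at its donor is another of the 5 choices. There the groups overlapped, at 28.6% and 19.4% in K700E cells against 20% and 25% in wild-type cells.

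**Figure D5:**
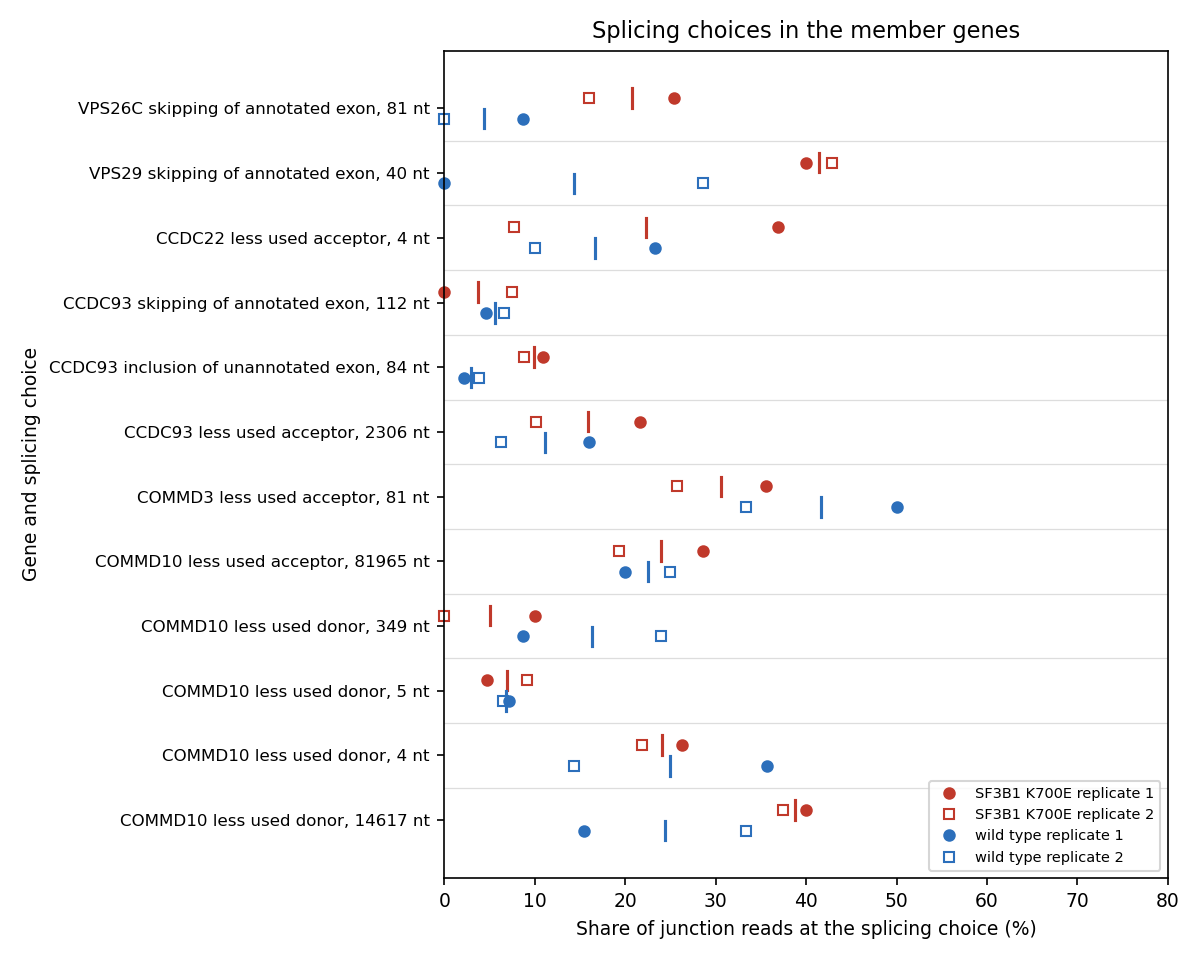
Share of junction reads (%) at each of the 12 splicing choices in the member genes, with SF3B1 K700E above wild type, 1 point per library and a tick at each group mean. Labels give the gene, the choice and the length in nt of the exon or of the distance between the sites. The skipped VPS26C exon lies at 25.4% and 16% in K700E libraries and at 8.70% and 0% in wild-type libraries.

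Joins absent from the annotation were a small part of the reads. Over the 10 genes they made up 4.69% and 5.09% of junction reads in K700E cells against 4.38% and 3.38% in wild-type cells. The groups did not overlap, at 4.89% ± 0.284 in K700E cells and 3.88% ± 0.705 in wild-type cells (SD, n = 2 each, difference 1.01 percentage points, exact two-sided permutation p = 0.333, which no assignment of 4 libraries can go below). Leaving out wild-type replicate 2 brought the difference to 0.51 points, leaving out replicate 1 of that genotype to 1.51, and it was 0.35 at junctions of at least 10 reads. The pooled share includes VPS35L, which chose the group and gave 1092 of 7688 K700E reads against 62 of 4392 wild-type reads. The mix of genes in the share therefore differed between genotypes. Neither a share without VPS35L nor a share over all genes is given here. Of 163 unannotated junctions, 10 had at least 10 reads, 6 of them in COMMD10, 3 in CCDC93 and 1 in CCDC22. COMMD10 had the highest share, 20.8% of 833 reads in K700E cells and 19.4% of 453 reads in wild-type cells. Unannotated joins there linked an exon of 81 nt (chr5:116317517-116317597), or of 85 nt by another donor, and an exon of 90 nt (chr5:116318211-116318300) to each other and to flanking exons in both genotypes. The join between the 81-nt and 90-nt exons was read 14 and 25 times in K700E cells against 9 and 6 times in wild-type cells.

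VPS35L had 14 unannotated junctions with 11 and 15 reads in K700E cells against 1 and 0 reads in wild-type cells, which is 2.38% of its K700E reads and 1.61% of its wild-type reads. None of its junctions used an unannotated acceptor 10 to 30 nt upstream of an annotated one, the range in which the K700E form of SF3B1 is known to act. Among all 10 genes 1 such site was found, 22 nt upstream in VPS35, with 1 read in K700E cells and none in wild-type cells.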

How the data were processed

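Chromatin RNA of K562 cells was sequenced in 2 SF3B1 K700E and 2 wild-type libraries. Per the run logs deposited with the samples, the authors aligned reads with STAR 2.7.10a to GRCh38.p12, with 353424 junctions of GENCODE release 27 in the index. The deposited counts are unnormalized reads per splice junction, per the file headers and STAR's column order, and the files used here hold no unspliced reads. Uniquely mapped counts over annotated introns were assigned through GENCODE release 29, and introns of more than 1 gene (3.98% of annotated reads) were left out. Gene totals and junction use were tested with edgeR 4.0.16 in R 4.3.3 (TMM, filterByExpr, quasi-likelihood fit, diffSpliceDGE over junctions of at least 10 reads that share a site, Benjamini-Hochberg at 0.05). Both edgeR tests ran over the whole table, and their scripts were checked on simulated data. DESeq2 1.42.0 and the settings of the closing section were alternatives. The biological coefficient of variation was 21.7%. Skipping and unannotated shares used SciPy 1.17.1 with exact two-sided permutation tests.

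The 10 genes, the pathway lists and the markers were chosen with earlier results of these data known. A gene of the cargo list is not reported here and is in no count over the lists. Named were all 10 genes, the 2 widest log2 changes of each pathway list and of the neighbours, any that passed, and the 5 genes nearest to VPS35L in pattern. Others named were chosen after their values were seen. Wild-type and mutant replicates share numbers, but same-numbered libraries did not deviate together (see the closing section), so they were not paired. Splice joins were read from the GENCODE release 29 transcripts.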

Additional observations from a re-analysis of the deposited data

How the results depend on the processing

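VPS35L kept a log2 change between 3.26 and 4.41 over the 12 alternative settings run, and none of the 9 other genes or the 14 neighbours was called under any of them. Over all genes, DESeq2 called 63 higher and 155 lower, the test without a low-count filter 72 and 128, and leaving out 1 library 0 to 98 higher and 0 to 228 lower, both 0 without K700E replicate 2 (where 350 and 640 had an unadjusted p under 0.05), against 36 and 65 as reported. In the pathway lists DESeq2 called 1 gene lower, ATP7B, and edgeR none when 1 library was left out. The replicate block gave 37 higher and 69 lower genes and called no member. Same-numbered libraries deviated with r = −0.23 across genes, and crossed numbers as a block, added after seeing the data, gave 123 higher and 301 lower genes, with 2 lower in the pathway lists. Leaving out 1 library turned the sign of 5 uncalled log2 changes, which ranged over −0.13 to 0.75 for VPS26C, −0.18 to 0.065 for VPS29, −0.53 to 0.45 for CCDC22, −0.39 to 0.17 for COMMD1 and −0.15 to 0.43 for COMMD2. Junction calls over all genes were 38 higher at a minimum of 20 reads, 12 under the replicate block and 3 to 11 with 1 library left out, against 24, with no member called under any setting run. The cause of these differences was not tested. Depth limits the splice shares: a library had 0 to 8 reads over the VPS26C skipping join.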
